A study of Mus musculus with 13 samples.

Results

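Of the 2505 DNA barcodes counted in this transplantation experiment, 111 (4.43%) had no read in the library of haematopoietic progenitors that served as baseline and were found only in leukaemias. These barcodes at 0 at baseline were chosen by their baseline value, and 43 of them were also at 10 CPM or more in at least 1 leukaemia library. CPM is the number of reads of a barcode scaled to a library of 1000000 reads. A barcode at 10 CPM or more in a library is called seen there. The 43 were thus chosen by their values at disease, which are given as a description.

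Haematopoietic progenitors positive for c-Kit, a receptor of stem and progenitor cells, were cultured with interleukin-3, interleukin-6 and stem cell factor and transduced with the SPLINTR barcode library. Leukaemia cells carrying MLL-AF9, a gene fusion that drives myeloid leukaemia, were transplanted into mice. Hosts were 3 Ptprca mice (mice 1, 2 and 3), a congenic strain on the C57BL/6 background with an intact immune system, and 3 NSG mice (mice 4, 5 and 6), which have no T cells, B cells or natural killer cells. From each mouse, viable cells sorted at disease gave a library of bone marrow and a library of spleen, and 1 library of haematopoietic progenitors was sequenced as baseline. All groups thus share the barcode library and MLL-AF9. Neither the age of the hosts nor the time to disease was used here.

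A lineage barcode is a short synthetic sequence that integrates into the genome of a cell and passes to all of its descendants, so that reads of a barcode follow the clone of 1 founder. Barcodes of the starting population can escape a baseline sample, because a rare clone need not be among the cells drawn for it. Splitting a lysate into repeats that are amplified separately is a usual check on rare barcodes.

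The deposited values took the form of a mean of 2 technical repeats. This was inferred from the steps between low values and is not stated by the labels, which say only that lysates were split. On this basis the reads of both repeats were recovered for all 5093 values above 0 and under 1000 CPM. Libraries held 2484519 to 5252942 reads. The baseline library held 4983966 reads, of which 0 carried any of the 111 barcodes. A floor of 3 reads in the shallower baseline repeat corresponded to 0.691 CPM. By the counting of reads alone, a value of 0 allows up to that level. Barcodes above it can also lack reads in a repeat, as 133 of 488 between 1 and 10 CPM did at baseline. The floor is thus not an upper limit on the level of a barcode in the lysate. At baseline, 370 of 371 barcodes between 10 and 30 CPM (99.7%) were found in both repeats, as were 355 of 488 barcodes between 1 and 10 CPM (72.7%) and 17 of 145 under 1 CPM (11.7%). With a single baseline library there is no replicate check of the baseline value. Whether this library was drawn from the cells that were injected is not given in the labels used here, so a 0 at baseline is a statement about the library alone. Floors and intervals describe the counting of reads alone. Reads were amplified by PCR and carry no molecular identifier, and the number of cells sampled adds an error that is not covered.

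Some libraries stood apart and are named here because many results rest on them. Ptprca mouse 3 spleen and NSG mouse 4 bone marrow shared more of these barcodes than any other pair of libraries, and with NSG mouse 4 spleen and Ptprca mouse 3 bone marrow they held most of them. Of the 43 barcodes, 32 were seen in mouse 3 or mouse 4. These mice gave 47 of the 60 values at 10 CPM or more, and the other 4 mice gave 13. Ptprca mouse 3 bone marrow had a shallow repeat of 170453 reads, so that its floor of 3 reads was 8.80 CPM, the highest of the 13 libraries. Each read of this repeat added 2.93 CPM, so that 6 reads of GFP_Barcode_166726 gave 17.6 CPM.

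All 43 barcodes held small shares of the reads. The highest value of each ranged from 10.5 to 244 CPM with a median of 39.0 CPM, and 16 reached 100 CPM. None reached 1000 CPM. Among the 568 barcodes above 0 at baseline that were seen at disease, the median highest value was 869 CPM, and 261 reached 1000 CPM. Set against the baseline floor of 0.691 CPM, the highest value of the 43 barcodes was 15.2-fold to 353-fold higher. The highest ratio belonged to GFP_Barcode_38964. These ratios restate the choice of the barcodes and have no replicate at baseline. They are not lower bounds on a rise, as the floor covers the counting of reads alone. In all, the 111 barcodes summed to between 0.000315% (Ptprca mouse 1 spleen) and 0.143% (NSG mouse 4 spleen) of a library.

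Barcodes next to the limit of 10 CPM were close in value. GFP_Barcode_32473, at 10.5 CPM in Ptprca mouse 1 bone marrow, and GFP_Barcode_27189, at 10.9 CPM in Ptprca mouse 2 spleen, lay just inside. GFP_Barcode_7408 and GFP_Barcode_48964, at 9.20 and 8.24 CPM in Ptprca mouse 3 spleen, lay just outside. All 4 were found in a single library and in 1 repeat of it.

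These barcodes were mostly found in 1 of the 2 technical repeats. Of the 60 values at 10 CPM or more, 9 (15.0%, 95% Wilson interval 8.10% to 26.1%) had reads in both repeats, and 51 had reads in 1 repeat only. Over the same range of 10 to 300 CPM, barcodes above 0 at baseline had reads in both repeats in 1317 of 1481 values (88.9%, 87.2% to 90.4%). Barcodes that were rare but present at baseline, above 0 and under 10 CPM, had them in 40 of 48 values (83.3%, 70.4% to 91.3%). Values of several barcodes come from 1 library, so these intervals describe counting only, and no test was made.

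In most of these values, the repeat with reads held many of them. Outside Ptprca mouse 3 bone marrow, 47 values rested on 1 repeat, and the repeat that had reads held 34 to 603 of them with a median of 139. GFP_Barcode_31589, the largest of these, stood at 241 CPM in NSG mouse 4 spleen with 603 reads in 1 repeat and 0 in the other. GFP_Barcode_161537 had 546 reads and 0 in the same library, and GFP_Barcode_10994 had 439 and 0. In the 3 libraries with the most such values, both repeats held some. In NSG mouse 4 bone marrow, 6 of these values lay in 1 repeat and 8 in the other, and in Ptprca mouse 3 spleen, 5 and 7. In NSG mouse 4 spleen the split was less even, at 7 and 3. In Ptprca mouse 3 bone marrow, 3 values rested on fewer than 10 reads of its shallow repeat.

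The share found in both repeats was low in each group of libraries. In Ptprca spleens it was 5 of 19 values (26.3%), against 407 of 408 values (99.8%) of barcodes above 0 at baseline. In Ptprca bone marrow it was 0 of 7, against 292 of 297 (98.3%). In NSG bone marrow it was 2 of 17 (11.8%), against 421 of 445 (94.6%). In NSG spleens it was 2 of 17 (11.8%), against 197 of 331 (59.5%), and in these 3 libraries the repeats of the other barcodes differed most too. It was also low at the higher levels, at 4 of 17 values from 100 to 300 CPM, against 495 of 522 (94.8%) of barcodes above 0 at baseline. The mix of libraries was unlike here. The values of the barcodes at 0 at baseline came mostly from NSG spleens, with a mean of 4.67 per library. Each other group had a mean of 0.667 or less. The 94.8% pools all 12 disease libraries, so the size of this gap cannot be read apart from the mix.

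In all, 8 of the 43 barcodes had reads in both repeats of a library in which they were seen. GFP_Barcode_38964 had them in both of the libraries that gave its highest values, with 370 and 710 reads in NSG mouse 4 bone marrow and 274 and 633 in Ptprca mouse 3 spleen. GFP_Barcode_16887 was seen in a single library, NSG mouse 6 spleen, at 153 CPM from 314 and 273 reads. GFP_Barcode_6744 was likewise found only in Ptprca mouse 2 spleen, at 32.6 CPM from 101 and 70 reads. GFP_Barcode_5999 had 105 and 204 reads in NSG mouse 4 spleen, and GFP_Barcode_138687 had 141 and 114 in NSG mouse 4 bone marrow. In Ptprca mouse 3 spleen, GFP_Barcode_2362 had 112 and 81, GFP_Barcode_64585 had 134 and 71, and GFP_Barcode_101790 had 48 and 84. Where both repeats had reads, the higher count was 1.15 to 2.31 times the lower.

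By host strain, 14 of the 43 barcodes were seen in Ptprca mice only, 19 in NSG mice only and 10 in both strains (32.6%, 44.2% and 23.3%). Among the 568 barcodes above 0 at baseline and seen at disease the shares were 14.1%, 31.0% and 54.9%, and among the 196 of them under 300 CPM they were 23.5%, 57.1% and 19.4%. Without mouse 3 these numbers were 6, 29 and 0, and without mouse 4 they were 23, 6 and 1. Counted by library, 3, 0 and 4 were seen in the bone marrow of Ptprca mice 1, 2 and 3, and 0, 3 and 16 in their spleens. In NSG mice 4, 5 and 6, 16, 0 and 1 were seen in bone marrow and 11, 3 and 3 in spleen. The group means were 2.33 ± 2.08 in Ptprca bone marrow, 6.33 ± 8.50 in Ptprca spleen, 5.67 ± 4.62 in NSG spleen and 5.67 ± 8.96 in NSG bone marrow (n = 3 libraries each, with SDs). The strains overlapped in each organ, and 1 mouse of each strain carried most of the count. Among all barcodes seen in a library, those at 0 at baseline made up 0% to 6.72%, the highest share being that of Ptprca mouse 3 spleen. NSG mouse 4 spleen followed at 5.73% and NSG mouse 4 bone marrow at 5.23%, while the libraries of the other 4 mice were at 1.38% or less.

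The largest values were found in NSG mice. All 16 barcodes that reached 100 CPM had their highest value in an NSG library, 9 in mouse 4 spleen, 2 in mouse 4 bone marrow, 3 in mouse 5 spleen and 2 in mouse 6 spleen. The only one that also reached 100 CPM in a Ptprca library was GFP_Barcode_38964, at 173 CPM in mouse 3 spleen. The strain of the highest value is not given here for other barcodes at this level. Of the 196 barcodes above 0 at baseline that stayed under 300 CPM at disease, 57.1% were seen in NSG mice only and 23.5% in Ptprca mice only. A lean to NSG mice is thus not shown to be particular to the barcodes at 0 at baseline. The summed level was 718 ± 618 CPM in NSG spleens and 196 ± 281 CPM in Ptprca spleens, and 311 ± 521 CPM in NSG and 56.1 ± 46.8 CPM in Ptprca bone marrow (SD, n = 3 each). By mouse it was 1427, 429 and 297 CPM in the NSG spleens of mice 4, 5 and 6, and 3.15, 65.7 and 519 CPM in the Ptprca spleens of mice 1, 2 and 3, so that the strains overlapped here as well. In bone marrow the summed level was 912.5, 3.35 and 17.3 CPM in NSG mice 4, 5 and 6, and 67.4, 4.70 and 96.2 CPM in Ptprca mice 1, 2 and 3. The higher NSG mean in bone marrow thus rested on mouse 4 alone. In NSG spleens, 1 repeat held all the reads of 15 of the 17 values at 10 CPM or more. These libraries also held fewer reads, 2640788 to 3821789, against 5091049 to 5252942 in Ptprca spleens. The part of the repeats and of depth in the strain values was not tested.

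Few of these barcodes were seen in more than 1 library. Of the 43, 30 were seen in 1 library (69.8%), 9 in 2 and 4 in 3. Among the 196 barcodes above 0 at baseline whose highest value at disease lay between 10 and 300 CPM, 82 were seen in a single library (41.8%). By mouse, 32 of the 43 were seen in 1 animal, 10 in 2 and 1 in 3, against 121 of the 196 in 1 animal. The number seen in more than 1 animal, 11, was 2 without mouse 3 and 1 without mouse 4. The lone barcode in 3 animals was GFP_Barcode_2362. It was at 157 CPM in NSG mouse 5 spleen, 36.7 CPM in Ptprca mouse 3 spleen and 32.9 CPM in NSG mouse 4 bone marrow. It was also at 5.82 CPM in Ptprca mouse 2 spleen and 0.226 CPM, a single read, in NSG mouse 5 bone marrow, and at 0 in the remaining 7 libraries. Both strains and both organs thus held this barcode, but only in Ptprca mouse 3 spleen did both repeats.

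Sharing between animals involved a pair of libraries from different strains and organs. Ptprca mouse 3 spleen and NSG mouse 4 bone marrow each had 16 of these barcodes, and 10 were the same (62.5% of each). Of the 66 pairs of libraries, 8 shared any, and the next highest number was 3, between the organs of NSG mouse 4. Among all barcodes above 0 at baseline, 159 were seen in both of these libraries, 71.6% of those seen in Ptprca mouse 3 spleen and 54.8% of those in NSG mouse 4 bone marrow. Among those that stayed under 300 CPM at disease, as the 43 barcodes did, Ptprca mouse 3 spleen had 18 and NSG mouse 4 bone marrow 60, with 4 in both (22.2% and 6.67%). None of these differences in overlap was tested.

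The 10 shared barcodes, chosen as a set after their values were seen, were GFP_Barcode_38964, GFP_Barcode_17502, GFP_Barcode_5999, GFP_Barcode_2362, GFP_Barcode_138687, GFP_Barcode_14880, GFP_Barcode_11296, GFP_Barcode_64585, GFP_Barcode_101790 and GFP_Barcode_22162. Their proportions between the libraries varied, but most of these values rest on 1 repeat, and the ratios were not tested. The ratio of mouse 4 bone marrow to mouse 3 spleen ran from 0.525 for GFP_Barcode_22162 (10.7 and 20.3 CPM) to 3.90 for GFP_Barcode_138687 (56.9 and 14.6 CPM), and 6 of the 10 were higher in mouse 4 bone marrow. GFP_Barcode_38964 alone had reads in both repeats of both libraries, 4 had them in both repeats of 1 library, and 5 had them in 1 repeat of each. For 6 of the 10, these were the only libraries with any read. Of the 11 barcodes seen in more than 1 mouse, the other was GFP_Barcode_25827, at 76.4 CPM in NSG mouse 4 bone marrow and 119 CPM in NSG mouse 6 spleen, in 1 repeat of each. Without Ptprca mouse 3 spleen and NSG mouse 4 bone marrow, an alternative chosen after seeing the data, 28 barcodes were seen at disease, and 0 of them in more than 1 mouse or in both strains.

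The organs of a mouse rarely had the same barcode. Counting each barcode once per mouse, 55 cases were seen in bone marrow or spleen, 5 (9.09%) in both, 19 in bone marrow only and 31 in spleen only. In 9 of the 55 (16.4%) the other organ had at least 1 read. For barcodes above 0 at baseline whose higher organ lay between 10 and 300 CPM, both organs were at 10 CPM or more in 319 of 787 cases (40.5%) and the other organ was above 0 in 467 (59.3%). Of these 787 cases, 341 were in bone marrow only and 127 in spleen only. For those above 0 and under 10 CPM at baseline in the same range, both organs were at 10 CPM or more in 10 of 36 cases (27.8%). By mouse, the number seen in both organs was 0 of 3, 0 of 3 and 2 of 18 in Ptprca mice 1, 2 and 3, and 3 of 24, 0 of 3 and 0 of 4 in NSG mice 4, 5 and 6. For barcodes above 0 at baseline, with no upper limit, the share was 80.9%, 82.0% and 83.6% in Ptprca mice 1, 2 and 3. It was 47.6%, 55.1% and 54.2% in NSG mice 4, 5 and 6, so that the organs of NSG mice shared fewer of those barcodes too. The excess of spleen cases among the barcodes at 0 at baseline, 31 against 19, came from Ptprca mouse 3. That mouse had 4 of them in its bone marrow, the library with the shallow repeat, and 16 in spleen. NSG mouse 4 had 16 in bone marrow and 11 in spleen, and the remaining mice went both ways with small counts.

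The 5 cases came from mice 3 and 4. In Ptprca mouse 3, GFP_Barcode_38964 was at 20.5 CPM in bone marrow and 173 CPM in spleen, and GFP_Barcode_17502 at 23.5 and 32.8 CPM. The bone marrow values rest on 7 and 8 reads of the shallow repeat. In NSG mouse 4, GFP_Barcode_5999 was at 59.6 CPM in bone marrow and 119 CPM in spleen, GFP_Barcode_61308 at 27.2 and 143 CPM, and GFP_Barcode_80713 at 32.0 and 135 CPM. All 5 were higher in spleen. GFP_Barcode_61308 had 125 reads in 1 bone marrow repeat and 357 in 1 spleen repeat, and GFP_Barcode_80713 had 139 and 374, with 0 reads in each other repeat.

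Own and other animals were compared in the same way. Of 24 cases seen in bone marrow, the spleen of the same mouse had the barcode at 10 CPM or more in 5 (20.8%), and spleens of other mice had it in 12 of 120 comparisons (10.0%). From spleen to bone marrow the shares were 5 of 36 (13.9%) and 12 of 180 (6.67%). All 12 matches between different mice involved NSG mouse 4 bone marrow, and 10 of them were with Ptprca mouse 3 spleen, so that 0 were left without NSG mouse 4 bone marrow. Barcodes above 0 at baseline between 10 and 300 CPM went from bone marrow to the spleen of the same mouse in 48.3% of cases and to spleens of other mice in 38.2%. From spleen to bone marrow their shares were 71.5% and 51.6%. In the 4 mice other than mice 3 and 4, 0 of 13 cases were seen in both organs.

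Over organs in any mouse, 21 of the 43 barcodes were seen in spleen only, 9 in bone marrow only and 13 in both. The same count is not given here for other barcodes, so these numbers do not show a lean to spleen. They also rest on few libraries, as Ptprca mouse 3 spleen had 16 of the 43, NSG mouse 4 bone marrow 16 and NSG mouse 4 spleen 11. Examples in spleen only were GFP_Barcode_31589, GFP_Barcode_161537, GFP_Barcode_10994, GFP_Barcode_8104, at 135 CPM, and GFP_Barcode_51307, at 129 CPM. These 5 were at 0 in each library other than NSG mouse 4 spleen and in 1 of its repeats. In NSG mouse 5 spleen, GFP_Barcode_37678 stood at 146 CPM from 474 reads of 1 repeat, with a single read in NSG mouse 4 bone marrow. GFP_Barcode_75225 stood at 126 CPM in the same spleen, from 410 reads of 1 repeat, with a single read in NSG mouse 5 bone marrow.

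Only 4 of the 111 barcodes were frequent enough for a test of strain or organ, which asked that a barcode be seen in 3 or more of the 12 disease libraries. They are GFP_Barcode_38964, GFP_Barcode_2362, GFP_Barcode_5999 and GFP_Barcode_17502, each seen in 3 libraries, among them Ptprca mouse 3 spleen and NSG mouse 4 bone marrow. GFP_Barcode_38964 was at 0 in 9 libraries and GFP_Barcode_17502 was too, the latter with its highest value of 106 CPM in NSG mouse 4 bone marrow. GFP_Barcode_5999 was in addition at 2.93 CPM, a single read, in Ptprca mouse 3 bone marrow. For each of the 4 barcodes the strains overlapped in both organs, since every group included a library at 0.

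Between strains in bone marrow, limma on log2(CPM + 1) over 373 barcodes called 4 of all those tested at a Benjamini-Hochberg adjusted p of 0.05 (1.07%). None was among the 4 barcodes at 0 at baseline, for which 0 had an unadjusted p under 0.05. In spleen it also called 4 of 373 (1.07%), with 0 among the barcodes at 0 at baseline and 0 of those at an unadjusted p under 0.05. The fit between organs did not take into account that both organs came from the same mice. Between organs limma called 0 of 373 (0%), with 34 at an unadjusted p under 0.05 and 0 of them among the barcodes at 0 at baseline. On this scale, which understates changes of low barcodes, GFP_Barcode_38964 differed between NSG and Ptprca mice by 1.17 in bone marrow (SE 2.67, limma adjusted p = 0.876) and by -2.48 in spleen (SE 2.08, limma adjusted p = 0.589). GFP_Barcode_2362 differed by 1.79 in bone marrow (SE 1.72) and -0.23 in spleen (SE 2.93). For the 4 barcodes the limma adjusted p was 0.589 or more in every comparison of strain or organ. With standard errors of this size, the tests do not show that the strains were alike. The organ difference, spleen minus bone marrow, was -0.82 for GFP_Barcode_38964 (SE 1.77), 1.65 for GFP_Barcode_2362 (SE 1.63), 0.63 for GFP_Barcode_5999 (SE 1.66) and -1.05 for GFP_Barcode_17502 (SE 1.55).

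The remaining 68 barcodes never reached 10 CPM. Their highest value was under 1 CPM for 54 and between 1 and 10 CPM for 14, and 45 of them had a single read in the whole table. Only 9 had reads in more than 1 library. The most widespread, GFP_Barcode_87, singled out after its values were seen, had reads in 5 libraries from 4 mice. It had 9 and 6 reads in the repeats of Ptprca mouse 2 bone marrow, at 3.54 CPM, and 4 and 2 reads in those of NSG mouse 4 bone marrow, at 1.33 CPM. It had 1 read in each repeat of NSG mouse 6 bone marrow. In 6 of the 68 barcodes both repeats of a library had reads, at 3.54 CPM or less.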

How the data were processed

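Each library was assigned to its host strain, organ and mouse by its sample title. Lysates were split before 2 rounds of PCR, per the labels' protocols. The submitters' processing notes name Bowtie 1.2.2 and R 3.6 without settings. Values are CPM, deposited by the authors in a single table whose columns each sum to 1000000. No listed barcode is at 0 in all 13 libraries, so barcodes at 0 at baseline appear only where a leukaemia held a read, and the share of them seen at disease cannot be set against that of other barcodes.

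Within each library, all values under 60 CPM (2183 in all, each distinct value counted once) could be written as i and j reads of 2 repeats, to within 1e-06 CPM, with whole read totals. That each value is a mean of 2 repeats is inferred from this. Values average repeats of unequal depth, so no count model was fitted. Tables were made in Python 3.11.15 with pandas 2.3.3, numpy 2.4.6 and scipy 1.17.1, and limma 3.58.1 in R 4.3.3 with a pseudocount of 1 and a variance trend. Read recovery and the limma fit were tested on simulated data. Bone marrow and spleen of the same number come from the same animal. Over 373 barcodes, their deviations from group means correlated at 0.773 to 0.796 in Ptprca mice and at 0.208 to 0.254 in NSG mice.

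The barcodes, lists and settings were chosen with earlier results of these data known. The rule for names took the 12 barcodes with the highest value, any seen in 3 or more mice, any called, and the 2 nearest to 10 CPM on each side. Its clause for barcodes seen in 6 or more libraries took 0. Named beyond it were the 10 barcodes shared by 2 libraries, those with reads in both repeats, those tested, GFP_Barcode_25827 and GFP_Barcode_87. Alternatives were other limits, pseudocounts, filters and variance priors, both repeats, the mouse as a block, and libraries or mice left out.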

Additional observations from a re-analysis of the deposited data

How the results depend on the processing

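Leaving out Ptprca mouse 3 spleen, NSG mouse 4 bone marrow, both, or NSG mouse 4 spleen was chosen after seeing the data. Cases in both organs are counted over mice that keep both libraries. Asking for reads in both repeats left 8 of 43 barcodes, 4 in Ptprca mice only, 3 in NSG mice only and 1 in both strains, 1 in 2 or more mice, 0 of 9 cases in both organs, and means of 0 per Ptprca bone marrow and 0.667 per NSG spleen. At a limit of 100 CPM, 16 barcodes were seen, 0 in Ptprca mice only, 15 in NSG mice only, 1 in both strains and 1 in 2 or more mice, with 0 of 17 cases in both organs and 0 per Ptprca bone marrow. At 1 CPM, 57 were seen, 24 in Ptprca mice only, with a mean of 5.67 per Ptprca bone marrow. A baseline limit of 3 reads, which took in 224 barcodes, gave 45, and leaving out the bone marrow libraries of mice 1 and 5 gave 40.

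Without Ptprca mouse 3 spleen, 8 barcodes were seen in Ptprca mice only, 2 in both strains, 4 in 2 or more mice and 3 cases in both organs. Without NSG mouse 4 bone marrow these numbers were 22, 2, 2 and 2 (of 31 cases). Without NSG mouse 4 spleen, 11 were in NSG mice only and 2 of 31 cases in both organs. Without both Ptprca mouse 3 spleen and NSG mouse 4 bone marrow, 28 barcodes were seen, 0 in both strains and 0 in 2 or more mice, with 0 of 13 cases in both organs. When a mouse was left out, 30 (mouse 4) to 41 barcodes were seen. In these fits, cases in both organs ran from 2 to 5 of 31 to 52, barcodes in 2 or more mice from 1 to 11, in Ptprca mice only from 6 to 23, in NSG mice only from 6 to 29, and in both strains from 0 to 10. Mean counts per library ran from 1.5 to 3.5 in Ptprca bone marrow, 1.5 to 9.5 in Ptprca spleen, 0.5 to 8.5 in NSG bone marrow and 3 to 7 in NSG spleen.

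limma called 0 of these barcodes between strains or organs under each alternative that tested any, with the mouse as a replicate block included (0 in each of the 3 comparisons). The barcodes tested were at 0 in most libraries, and those of the main fit were kept by their values at disease. Repeated counts of 0 thus do not show that strains or organs were alike. A filter of 100 CPM left none of them to test. Over all barcodes, calls between strains ran from 0 to 14 in bone marrow and 0 to 7 in spleen, against 4 in each, both highest with the 100 CPM filter. The lowest adjusted p of a barcode at 0 at baseline was 0.541, in spleen with a pseudocount of 10. The floors of the libraries, 0.575 to 8.80 CPM, limit what can be said of values below them.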
